A study of Mus musculus with 21 samples.

Results

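Cells sorted as LSKCD201- on day 5 of the OP9 coculture (D5-LSKCD201-) were compared with mouse embryonic stem cells (mESC), gene by gene. The comparison used 6 of the 21 libraries of the study, 3 of each group, chosen by their labels alone, and all 27968 genes of the sorted-cell table. Both groups carry the strain label 129/ola. D5-LSKCD201- cells came from hematopoietic-like colonies of embryoid bodies grown in a 3D self-assembling peptide, which were plated on OP9 cells, a mouse bone marrow stromal line arrested with mitomycin C, in serum with stem cell factor, IL-3 and Flt3 ligand. On day 5 they were sorted as lineage-negative, Sca-1-positive and c-kit-positive (LSK) cells without surface CD201, the endothelial protein C receptor encoded by Procr. The mESC were kept on inactivated embryonic fibroblasts with serum and leukemia inhibitory factor (LIF) and were sorted with an antibody against SSEA-1, a carbohydrate antigen of undifferentiated mouse cells. The CD201-bearing cells of the same coculture (D5-LSKCD201+, 3 libraries) are used below only to show where D5-LSKCD201- cells differed from them. The authors describe the 3 libraries of a group as biological replicates. The labels do not say whether they came from separate cultures, so p-values measure the spread between these libraries, which may be technical.

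Mouse ESCs in serum and LIF hold a network of pluripotency factors around Oct4, Sox2 and Nanog. On differentiation they pass through a state like the epiblast after implantation and then a primitive streak state, in which mesendoderm genes such as Eomes and Mixl1 come on. Blood arises from mesoderm by way of hemogenic endothelium, which carries Kdr (the receptor Flk1) and Cdh5 (VE-cadherin) before Runx1 drives its turn to blood. The gene lists are described in that order.

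Values were FPKM, fragment counts scaled by the authors to transcript length and library size, so the depth is unknown. They summed to between 535792 and 550978 in D5-LSKCD201- libraries and between 514860 and 530631 in mESC. Replicates 1 and 3 of D5-LSKCD201- had a Pearson r of 0.997 across 13596 genes, which are not independent replicates, and replicate 2 stood apart from them at 0.982 and 0.981. Of 12010 genes at 1 FPKM or more, 525 were lower by at least 1 log2 unit in replicate 2 than in the mean of the other 2 libraries, and 15 were higher. The shortfall was greatest in the 20% of genes with the highest GC content, at a median of -0.25, and in the 20% with the longest transcripts, at -0.26. Calls and list counts that move by 1.5 times or more without replicate 2 are therefore also given without it.

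**Figure D1:**
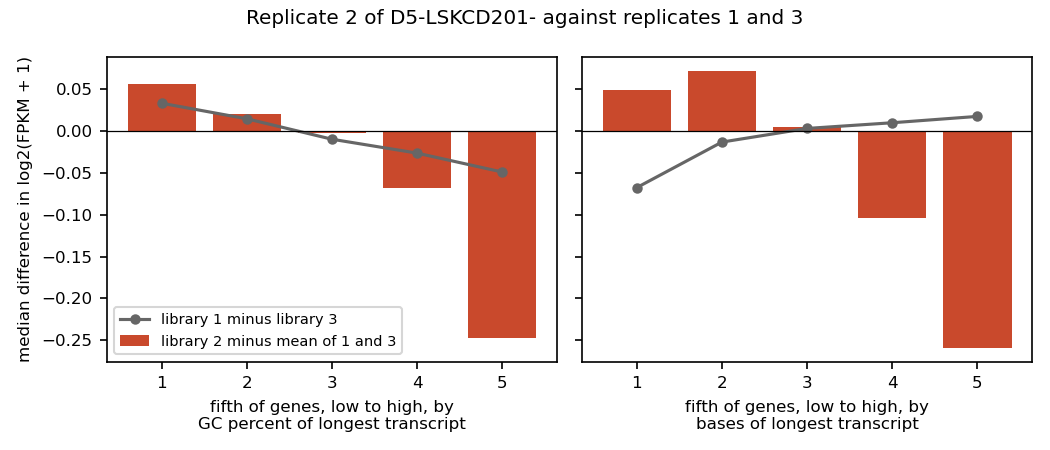
Bars give the median difference in log2(FPKM + 1) between replicate 2 of D5-LSKCD201- and the mean of replicates 1 and 3, for 5 equal bins of genes by GC percent (left) and by length of the longest transcript (right), and points give replicate 1 minus replicate 3. Bars reach -0.25 in the highest GC bin and -0.26 in the longest bin, while the points stay between -0.07 and 0.03.

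The genes of the sort gave a first reading. Ly6a, which encodes Sca-1, stood at 32.1, 31.7 and 33.8 FPKM in D5-LSKCD201- and 1.38, 1.48 and 1.93 in mESC. Kit, which encodes c-kit, stood at 31.0, 23.8 and 31.5 against 5.87, 7.6 and 6.88. For neither gene did the libraries of the groups overlap. Procr was low in both, at 3.59, 3.02 and 3.82 against 2.67, 2.31 and 2.23. Of 14 genes of the lineage markers 3 could be tested, and Ly6c1 and Ly6c2, which encode Ly-6C antigens, were higher in D5-LSKCD201-, with means of 9.15 and 1.72 FPKM. These copies are near-identical, so reads may have been split between them.

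Genes were tested with limma on log2(FPKM + 1), so fold changes are on that scale and understate the change of low genes. A gene was tested if it averaged at least 0.5 FPKM over the 6 libraries, and was called when its Benjamini-Hochberg adjusted p was below 0.05 and it differed by 1 log2 unit or more. Of 13596 genes tested, 1476 were higher in D5-LSKCD201- than in mESC (10.9%) and 473 were lower (3.48%). Higher genes were thus 75.7% of the calls, and 59.8% under quantile normalization, which moved the median over all genes from 0.05 to -0.10. Of the genes called higher, 439 had all 3 mESC values under 0.5 FPKM, 421 rose by at least 2 log2 units and 43 by at least 4. Of the genes called lower, 45 fell by at least 2 units and 1 by at least 4. List counts against mESC given below are to be read beside the shares of all genes, 10.9% higher and 3.48% lower. A gene near 0 in mESC could be tested only if D5-LSKCD201- libraries expressed it. In lists of such genes the filter therefore favors higher calls and leaves little room for lower ones. Shares of their tested members are not shares of the list. In bulk samples such as these, fewer cells of a type and less RNA per cell cannot be told apart.

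**Figure D2:**
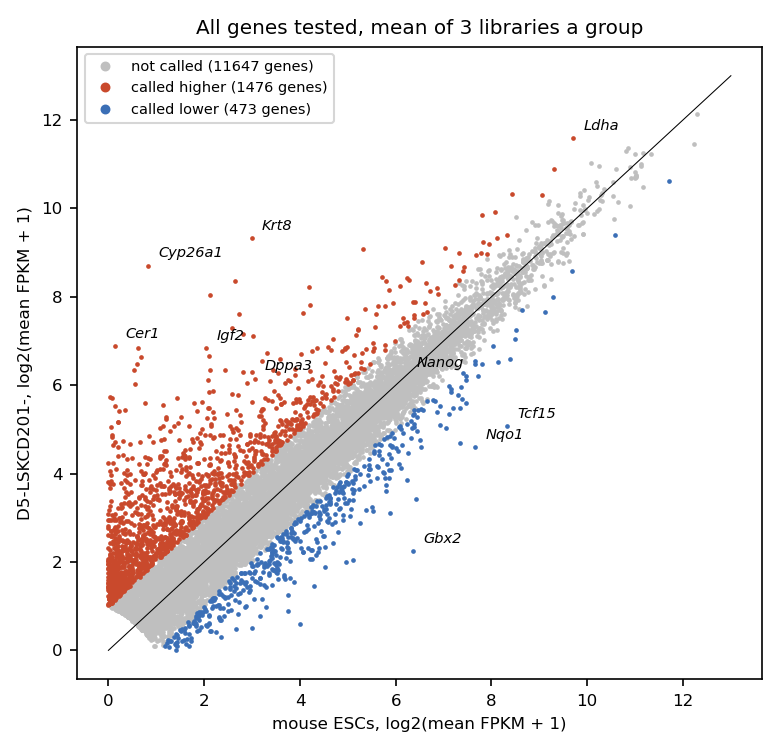
Each point is 1 of 13596 tested genes, as log2 of its mean FPKM over 3 libraries plus 1, in mESC (x axis) and in D5-LSKCD201- (y axis), and the line marks equal levels. The 1476 genes called higher reach far above the line, up to Cyp26a1, and the 473 called lower lie closer to it.

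On the scale of log2(FPKM + 1), the largest rise was that of Cyp26a1, which encodes an enzyme that breaks down retinoic acid. It stood at 392, 476 and 380 FPKM in D5-LSKCD201- and at 0.489, 0.909 and 0.889 in mESC, a 546-fold difference in mean FPKM. On the log2 scale this was 7.89 (SE 0.13, adjusted p 1.28e-07). D5-LSKCD201+ libraries held 115, 123 and 120 FPKM, and the gene was called higher in D5-LSKCD201- than in these as well, by 1.78 (SE 0.09, adjusted p 3.12e-06). Cyp26a1 lies on chromosome 19, from 37697808 to 37701528 on GRCm38. Its upstream sequence is shown because no gene moved further on the scale of log2(FPKM + 1). Retinoic acid receptors are also known to bind paired half-sites of the form AGTTCA. The RefSeq window (GRCm38.p6, plus strand, chr19:37697558-37697807) ends at the base before the start of the gene, and capitals mark AGTTCA read on either strand.

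Cyp26a1: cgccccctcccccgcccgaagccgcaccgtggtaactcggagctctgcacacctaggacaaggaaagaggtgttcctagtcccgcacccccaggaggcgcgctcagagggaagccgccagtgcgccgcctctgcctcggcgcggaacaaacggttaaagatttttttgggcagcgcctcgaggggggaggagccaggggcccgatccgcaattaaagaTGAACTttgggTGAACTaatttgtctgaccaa

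The 2 matches start 32 and 21 bases upstream of the start, with 5 bases between them. Of 12654 windows of the same length and place at tested genes 8.57% hold AGTTCA on either strand, and of those at genes called higher 8.62% do. A match is a description of the letters and not evidence of binding.

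Genes of retinoic acid handling, Cyp26a1 among them, were listed after the Cyp26a1 value was seen. Of 27 listed, 22 were tested, 9 were higher and 3 lower (2 without replicate 2), with a median log2 fold change of 0.67. Crabp2, a retinoic acid carrier, stood at 17.3, 22.2 and 17.8 FPKM against 7.99, 6.11 and 7.66 and rose by 1.28. Rarg and Rara, the genes of retinoic acid receptors, fell (-2.48 and -1.72). Rarg stood at 10.9, 1.90 and 11.1 FPKM against 40.05, 40.4 and 42.2, with the lowest value in replicate 2, and it fell by 1.80 without that library. Aldh1a2, which makes retinoic acid, was low in both groups, at 2.33, 2.17 and 2.43 against 1.19, 1.28 and 1.21 FPKM, and was not called.

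After Cyp26a1 came genes of varied function. Cer1, a secreted antagonist of Nodal and BMP made by anterior endoderm, stood at 108, 129 and 115 FPKM against 0.0615, 0.114 and 0.116 (6.75, SE 0.09). Fgf8 and Fgf5, growth factors of the streak and of the epiblast, stood at means of 114 and 80.5 FPKM against 0.543 and 0.457, and rose by 6.22 and 5.81. Sox17, a factor of endoderm and of arterial endothelium, stood at 89.8, 105 and 101 FPKM against 0.677, 0.487 and 0.633 (5.96, SE 0.09). Car4, Prss12 and Mogat2 rose by 5.92, 5.62 and 5.47, and Hbb-bh1, an embryonic beta globin, by 5.57. Of these 12 genes, 10 were also called higher in D5-LSKCD201- than in D5-LSKCD201+, beside 13.9% of all 13691 genes tested in that comparison and 30.3% of the 1476 genes called higher than in mESC. Both comparisons use the same D5-LSKCD201- libraries, so the tally is a description. The exceptions were Sox17 and Mogat2, which stood at means of 121 and 80.2 FPKM in D5-LSKCD201+.

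**Figure D3:**
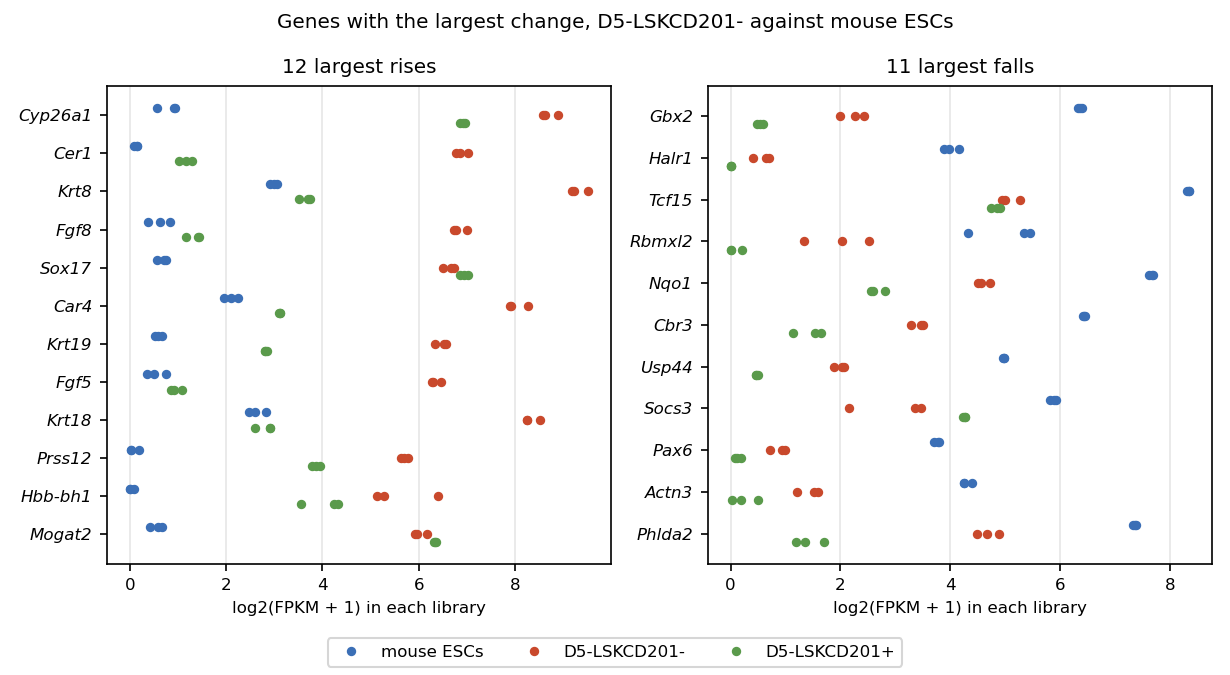
Each point is 1 library, as log2(FPKM + 1), in mESC, D5-LSKCD201- and D5-LSKCD201+. The genes are the 12 with the largest rise (left) and the 11 with the largest fall (right). They were taken from called genes whose D5-LSKCD201- and mESC values do not overlap. The gap between those points thus follows from the choice of genes. Sox17 and Mogat2 are the rises where D5-LSKCD201+ points lie as high.

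Krt8, Krt18 and Krt19, the keratins of simple epithelia, rose together. Krt8 stood at 584, 734 and 599 FPKM in D5-LSKCD201- and 7, 6.49 and 7.37 in mESC, a 91.9-fold difference in means (6.32, SE 0.10, adjusted p 1.28e-07). Krt18 and Krt19 rose by 5.71 and 5.88. In D5-LSKCD201+ the means of the 3 genes were 11.6, 6.03 and 6.05 FPKM. A list of 32 genes of keratins and cell junctions, Krt8 among them, was made after these values were seen. Of the 32, 18 were higher than in mESC and 1 was lower, with a median of 1.34. Cldn6 and Cldn7, genes of tight junction claudins, rose by 4.88 and 3.22. Cdh1 and Epcam, which encode adhesion proteins of epithelia and of mESC, were not called, at means of 72.6 and 111 FPKM against 58.0 and 73.7. Of mesenchymal genes in the list, Cdh2 (N-cadherin) and Snai1 rose by 3.06 and 2.41, while Zeb1 was at 2.42, 2.02 and 2.71 against 2.75, 2.98 and 3.14 FPKM and was not called.

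Pluripotency genes as a sum lay between mESC and D5-LSKCD201+. Of 41 listed genes, all were tested, 12 were lower and 3 higher (29.3% and 7.32%, beside 3.48% and 10.9% of all genes), with a median of -0.82. Summed over the list, FPKM ranged from 5797 to 6986 in D5-LSKCD201-, 9929 to 10545 in mESC and 369 to 385 in D5-LSKCD201+. Of the 41, 38 were called higher in D5-LSKCD201- than in D5-LSKCD201+ and none lower, beside 13.9% and 10.8% of all genes in that comparison. Without replicate 2 the 12 lower genes became 10.

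Of the core factors, Sox2 was among the 12, at 20.4, 8.74 and 19.9 FPKM against 75.3, 73.6 and 54.7 (-2.06, and -1.69 without replicate 2). Pou5f1, which encodes Oct4, stood at 248.7, 155 and 258 against 424, 429 and 426 (-0.98), just under the fold threshold, and was called under quantile normalization (-1.04) and without replicate 1 or replicate 3 of D5-LSKCD201-. Nanog overlapped between the groups, at 72.7, 78.0 and 71.6 against 74.99, 75.7 and 71.0. Dppa2, a chromatin factor of pluripotent cells, stood at 40.6, 41.1 and 37.8 FPKM against 137, 136 and 141, and fell by 1.77 (SE 0.06, adjusted p 7.86e-07). Nr0b1 and Gdf3 fell (-1.40 and -1.33), and Tdgf1, the Nodal co-receptor Cripto, fell by 1.28. Zfp57, a zinc finger protein that guards imprints, fell by 1.94 (-1.58 without replicate 2). Dnmt3l, a cofactor of DNA methylation in the germ line, stood at 85.8, 85.0 and 84.8 FPKM against 86.4, 85.5 and 82.7, and the groups overlapped. Klf2 was not called, at 111, 30.4 and 137 FPKM against 144, 142 and 142, with replicate 2 far below the others.

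Dppa3, also known as Stella, went the other way. It stood at 69.5, 67.6 and 72.4 FPKM against 8.35, 6.64 and 6.89, and rose by 3.10 (SE 0.09, adjusted p 6.64e-07), while D5-LSKCD201+ libraries held at most 0.351. Dppa3 is a gene of naive cells and of primordial germ cells. Among 20 germ cell genes 18 were tested, 7 were higher and none lower, with a median of 0.71 (limma; at an unadjusted p below 0.05, 3 were lower). Nanos3 and Dazl, RNA-binding regulators of early germ cells, stood at 12, 11.6 and 10.4, and at 6.65, 6.75 and 5.84 FPKM, against at most 2.83 and 1.39 in mESC, and rose by 1.80 and 1.73. Prdm1, Prdm14 and Tfap2c, which specify germ cells, changed by 0.77, 0.42 and 0.86 and were not called. Trh, the thyrotropin-releasing hormone gene, was a further pluripotency-list gene that rose, from a mean of 278 to 641 FPKM (1.20).

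Genes of the primed epiblast and primitive streak were high in D5-LSKCD201- cells. Of 30 listed, 29 were tested, 18 were higher (62.1%) and 4 lower (13.8%), with a median of 1.89. Otx2, a factor of primed pluripotency, stood at 82.6, 83.0 and 75.9 FPKM against 10.5, 9.01 and 10.02 (2.91, SE 0.08). Eomes, a T-box factor of mesendoderm, stood at 38.7, 33.7 and 37.6 against 1.49, 1.34 and 1.06 (4.04, SE 0.11). T, which encodes Brachyury, rose by 2.89. Mixl1, a factor of mesendoderm, rose from a mean of 0.794 to 27.8 FPKM, and Gsc and Mesp1, factors of the organizer and of early mesoderm, rose by 3.94 and 3.12. Foxa2 and Lhx1, which act in the organizer and in definitive endoderm, rose by 4.13 and 4.93. In D5-LSKCD201+ the mean of each of Eomes, Mixl1, Gsc, Mesp1 and T was at most 1.07 FPKM, and 24 of the 27 list genes tested between the 2 sorted populations were higher in D5-LSKCD201-, beside 13.9% of all genes.

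The 4 genes that fell were Dnmt3a, Pou3f1, Lefty1 and Lefty2. Dnmt3a, a de novo DNA methyltransferase gene, stood at 30.4, 34.8 and 30.2 FPKM against 138, 124 and 132 (-2.02, SE 0.08), and Dnmt3b, the gene of its relative, at 122, 118 and 118 against 67.4, 68.0 and 68.9 (0.80, adjusted p 1.19e-05, under the fold threshold). Both are known to be induced in primed cells. Lefty1 and Lefty2, inhibitors of Nodal, fell (-1.45 and -1.33), while Nodal itself was at 36.4, 37.2 and 40.5 FPKM against 29.1, 29.1 and 29.8 and was not called.

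Of 33 endoderm genes 24 could be tested, and 20 of these were higher (83.3%) at a median of 2.58, while none was called lower (limma; 1 at an unadjusted p below 0.05). The 9 genes not tested were all below 1 FPKM in every D5-LSKCD201- library, so the filter removed members that did not rise. Gata6 and Gata4, factors of primitive endoderm and cardiac mesoderm, rose by 3.55 and 3.80, and Gata4 stood at 41.5, 15.2 and 41.2 FPKM against at most 1.38. Dab2, an endocytic adaptor of visceral endoderm, and Spink1, a trypsin inhibitor of gut endoderm, rose by 4.41 and 4.07. Of later endoderm products, Afp, the alpha-fetoprotein gene, was at 0.520, 0.381 and 0.581 FPKM and could not be tested. Ttr, the transthyretin gene, was at 1.61, 1.06 and 1.40 FPKM and listed at 0 in all 3 mESC libraries. Ttr was called higher, though not under quantile normalization. In a list of 22 trophoblast genes 13 were tested, 10 were higher and 1 lower, and Krt8 and Krt18 led the rises. Cdx2, which marks trophoblast stem cells, was at 0.578, 1.13 and 0.771 FPKM. Of 18 neural genes 10 were tested, and 1 was higher (10%, beside 10.9% of all genes) and 1, Pax6, lower.

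On the scale of log2(FPKM + 1), the largest fall was that of Gbx2, a homeobox factor that LIF is known to induce in mESC. It stood at 4.40, 2.95 and 3.81 FPKM in D5-LSKCD201- against 80.5, 79.2 and 82.9 (-4.13, SE 0.12, adjusted p 5.65e-07), which is 4.6% of the mESC level. As a share of the mESC level Halr1, described below, was lower, at 3.3%. Socs3, the feedback inhibitor of LIF signaling, stood at 10.01, 3.48 and 9.21 against 55.1, 59.3 and 58.2 and fell by 2.88. A list of 17 LIF and STAT3 target genes, Gbx2 among them, was made after these values were seen. It had 7 lower and 1 higher, with a median of -0.81. Bcl3 and Pim1 fell (-2.08 and -1.36), whereas Tfcp2l1, Klf4, Junb and Stat3 were not called. Fos, the 1 gene of this list that rose, is also an immediate early gene.

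Another group among the largest falls was of redox enzymes. Nqo1, a quinone reductase and a common readout of the factor NRF2, stood at 21.6, 25.4 and 22.7 FPKM against 204, 195 and 202 (-3.06, SE 0.07, adjusted p 3.38e-07). Cbr3, a carbonyl reductase gene, stood at 8.79, 10.3 and 10.1 against 84.3, 86.1 and 85.7 (-3.01, SE 0.07). Of 33 genes of NRF2 targets and redox enzymes, Nqo1 among them and again listed after the values were seen, 28 were tested. Of these, 6 were lower (21.4%, beside 3.48% of all genes) and 1 higher (3.57%, beside 10.9%), with a median of -0.16. Srxn1, Pir and Gclm fell (-2.39, -2.18 and -1.82). Hmox1, which NRF2 also controls, was at 45.3, 51.8 and 45.7 against 52.6, 49.0 and 48.0 FPKM, and the groups overlapped.

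The other large falls were of scattered function. Tcf15, a helix-loop-helix factor of cells leaving the naive state, stood at 30.7, 29.6 and 37.2 FPKM against 322, 323 and 316 (-3.27, SE 0.09), and its level in D5-LSKCD201+ was close by, at 25.8, 27.8 and 28.8. Phlda2, an imprinted gene that restrains placental growth, fell by 2.67, and the homeobox gene Pax6 by 2.87. Usp44, a deubiquitinase, Actn3, a muscle actinin, and Rbmxl2, a germ cell RNA-binding protein, fell as well (-2.97, -2.86 and -3.07). Halr1, a lincRNA, stood at 0.323, 0.560 and 0.624 FPKM against 16.9, 13.7 and 14.7 (-3.42). Of the 11 largest falls named, 9 could be tested against D5-LSKCD201+, and 7 of these were higher in D5-LSKCD201-, among them Gbx2, Nqo1 and Phlda2, beside 13.9% of all genes and 163 of the 407 tested genes called lower than in mESC. Socs3 was lower (-1.27), and was not called there without replicate 2, and Tcf15 was not called.

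Endothelial genes were raised above mESC, yet to a small part of the level in D5-LSKCD201+. Of 47 listed, 44 were tested against mESC, 28 were higher (63.6%) and none lower (limma; 3 at an unadjusted p below 0.05, and 2 called under quantile normalization), with a median of 1.31. Kdr stood at 7.45, 5.72 and 7.69 FPKM in D5-LSKCD201-, 0.218, 0.169 and 0.159 in mESC and 143, 134 and 133 in D5-LSKCD201+. It was higher than mESC by 2.74 (SE 0.12) and lower than D5-LSKCD201+ on the same scale (-4.12, adjusted p 1.65e-07). Cdh5 stood at 2.55, 2.23 and 2.16 FPKM, with at most 0.0679 in mESC and a mean of 70.8 in D5-LSKCD201+. Flt1, a VEGF receptor also made outside endothelium, was nearer, at 28.7, 22.9 and 26.0 FPKM against a mean of 71.1 in D5-LSKCD201+. Pecam1, an adhesion gene that mESC also express, was at 22.8, 23.8 and 22.1 against 14.3, 14.1 and 14.4 and was not called.

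Against D5-LSKCD201+, 46 of the 47 endothelial genes were lower in D5-LSKCD201-, beside 10.8% of all genes tested. All 47 could be tested, and their median log2 fold change was -3.57. Icam2, Esam, Emcn and Tek, endothelial surface genes, stood at 3.38%, 4.01%, 3.69% and 4.86%. The sum of the list ranged from 523 to 597 FPKM in D5-LSKCD201-, 149 to 154 in mESC and 8071 to 8175 in D5-LSKCD201+. The exception was Sox17, at 81.1% of D5-LSKCD201+. Procr itself stood at 5.83% of its D5-LSKCD201+ level. Whether carried-over D5-LSKCD201+ cells had a part in these levels was not tested.

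**Figure D4:**
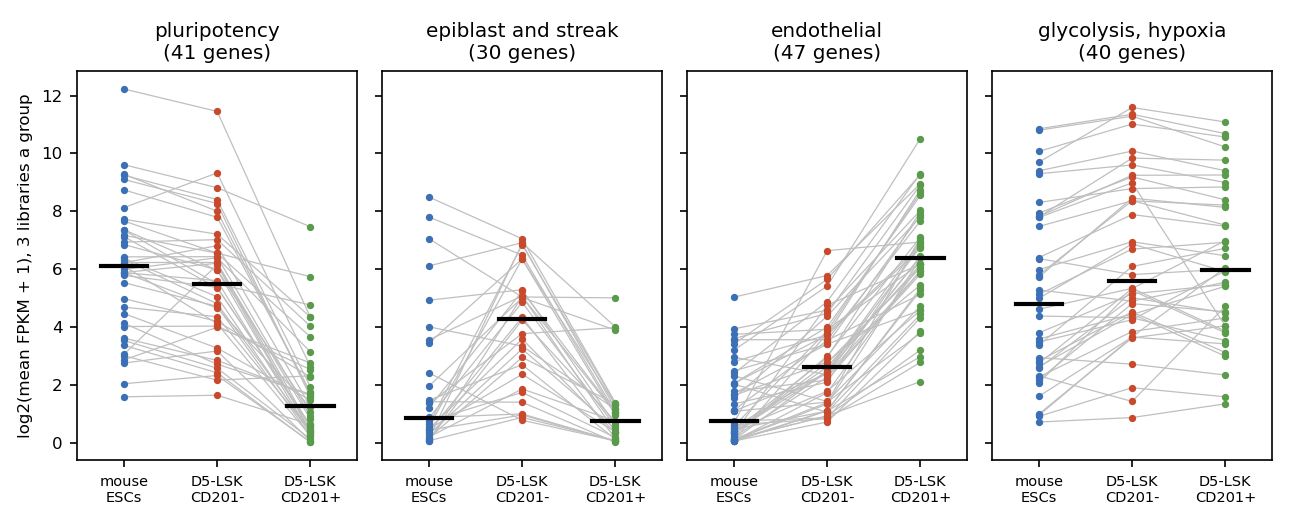
Each point is a gene, as log2 of its mean FPKM over 3 libraries plus 1, in mESC, D5-LSKCD201- and D5-LSKCD201+, for 4 lists, with lines joining the same gene and black bars at the medians. By the medians, pluripotency genes in D5-LSKCD201- lie near mESC and far above D5-LSKCD201+, epiblast and streak genes are highest in D5-LSKCD201-, and endothelial genes are highest in D5-LSKCD201+, while the medians of glycolysis and hypoxia genes lie close together in both D5 populations.

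Genes of blood were detected at low levels. Of 43 hematopoietic transcription factors 31 were tested and 15 were higher (48.4%), none lower (limma; 1 at an unadjusted p below 0.05), with a median of 0.99. Gata1, the erythroid and megakaryocyte factor, stood at 3.70, 5.66 and 4.31 FPKM against 0.264, 0.234 and 0.184 (2.16, SE 0.14). Runx1 stood at 6.06, 4.37 and 5.74 FPKM, and both genes were called higher than in D5-LSKCD201+, by 1.98 and 1.19. Of 35 list genes tested in that comparison 5 were higher in D5-LSKCD201-, 15 were lower and 15 were not called, beside 13.9% and 10.8% of all genes higher and lower. Gfi1b, a repressor that acts with Gata1, was at 2.08, 3.86 and 2.20 against at most 0.150 in mESC and rose by 1.72. Spi1, which encodes PU.1, rose by 1.81 but was called lower than in D5-LSKCD201+ (-1.02). Tal1 and Gata2, which act at the start of blood formation, were not called, at 0.948, 0.254 and 1.11, and at 3.55, 1.96 and 4.13 FPKM.

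Several markers of mature blood were near 0, while others were detected. Ptprc, which encodes CD45 and defines leukocytes, stood at 0.419, 0.935 and 0.545 FPKM and could not be tested. With this marker near 0 and Nanog at 72.7, 78.0 and 71.6 FPKM, D5-LSKCD201- is used here as the name of a sort and not of a blood cell type. Of 41 leukocyte genes 32 were tested, 15 were higher and 1 lower, and their sum ranged from 302 to 317 FPKM against 136 to 144 in mESC and 935 to 951 in D5-LSKCD201+. Srgn, a proteoglycan of secretory granules, stood at 32.0, 26.7 and 31.9 against 1.53, 1.61 and 1.13 and rose by 3.69. Tph1, which makes serotonin, was at 14.3, 16.5 and 13 FPKM with at most 0.136 in mESC, and rose by 3.90. Cpa3, the mast cell carboxypeptidase, was at 0 in 2 of 3 libraries, Pf4, a platelet chemokine, stood at no more than 0.211 FPKM and Csf1r, the macrophage receptor, at no more than 0.790. Mpo, a granule enzyme of myeloid progenitors, was at 6.37, 5.61 and 5.45 FPKM against 0.473, 0.452 and 0.774 and rose by 2.12. Most genes of single blood lineages were too low to test. In the megakaryocyte list 8 of 14 tested genes were higher, in the mast cell list 5 of 12, in the neutrophil and macrophage list 5 of 13 and in the lymphoid list 3 of 11, with 1 lower. The lymphoid genes that rose were Eomes, Gata3 and Id2, which also act in the streak, trophoblast and other tissues, and the one that fell was Cd79a of B cells (-1.34), at a mean of 0.174 FPKM against 1.98. Of 26 cytokine receptor genes 13 were tested and 4 were higher, Kit among them.

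In the erythroid list of 50 genes, 33 were tested, 12 were higher (36.4%) and 1 lower, with a median of 0.62. Car2, a carbonic anhydrase of red cells and of other tissues, had the highest level of the 12, at means of 498 FPKM against 238 (1.05), and was not called without replicate 2. Embryonic globins were nearly absent from mESC. Hbb-bh1 stood at 34.0, 84.1 and 37.6 FPKM and was listed at 0 in 2 of 3 mESC libraries, and Hba-x, the embryonic alpha globin, at 6.25, 24.4 and 8.54 and was listed at 0 in all 3. Replicate 2 held the highest value of both. The adult globin Hbb-bs was in both groups, at 12.9, 9.99 and 14.0 against 7.54, 11.8 and 9.72 FPKM, and was not called, and its reads may have been shared with its near-identical neighbor. Klf1, the factor of adult globin, and Epor, the erythropoietin receptor, were at means of 1.73 and 3.51 FPKM and were not called either.

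Genes of mesoderm derivatives were higher. Of 24 genes of paraxial, cardiac and smooth muscle, 19 were tested, 15 were higher (78.9%) and 1 lower, with a median of 2.03. Acta2, smooth muscle actin, stood at 122, 185 and 121 FPKM against 4.88, 3.6 and 9.65 (4.41, SE 0.31), and Myl7, an atrial myosin light chain, at 28.5, 33.8 and 33.1 against at most 1.54 (3.97, SE 0.14). Actc1, cardiac actin, stood at 18.5, 40.6 and 16.9 FPKM, with replicate 2 highest. All 3 were called higher than in D5-LSKCD201+. Nkx2-5, a defining cardiac factor, was at 0.945, 0.386 and 1.99 against 0.736, 0.212 and 0.533 FPKM, and the groups overlapped.

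Fibroblast and stromal genes were raised as well. Of 36 listed, 33 were tested and 26 were higher (78.8%), none lower (limma; 0 at an unadjusted p below 0.05), with a median of 1.62. S100a4, a calcium-binding protein of fibroblasts, stood at 152, 140 and 177 FPKM against 5.62, 4.14 and 5.15 (4.72, SE 0.12). Col1a1, type I collagen, stood at 24.9, 8.02 and 25.7 against 4.01, 3.72 and 3.68, and at a mean of 29.8 in D5-LSKCD201+. Lum, a matrix proteoglycan of fibroblasts, was near 0, at 0.067, 0.135 and 0.123 FPKM. Of 34 list genes tested against D5-LSKCD201+, 9 were lower and 2 higher, beside 10.8% and 13.9% of all genes. The list summed to between 2145 and 2760 FPKM in D5-LSKCD201-, 608 and 627 in mESC and 4184 and 4507 in D5-LSKCD201+. Both D5 populations were taken from a layer of OP9 stromal cells and mESC from a layer of fibroblasts. The sort for lineage-negative, Sca-1-positive and c-kit-positive cells, and that for SSEA-1, are steps that select against such cells, and their part in these values was not tested.

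Of 40 genes of glycolysis and the hypoxia response all were tested, 21 were higher (52.5%) and none lower (limma; 4 at an unadjusted p below 0.05), with a median of 1.23. Ldha, lactate dehydrogenase A, stood at 2926, 3346 and 2969 FPKM against 837, 826 and 825 (1.89, SE 0.07, adjusted p 1.26e-06). Tpi1, a glycolytic enzyme, stood at 913, 918 and 913 against 224, 222 and 222 (2.03, SE 0.04). Bnip3, a mitophagy receptor, stood at 303, 384 and 299 against 56.5, 54.8 and 52.3 (2.56), and Slc16a3, the lactate exporter MCT4, at 390, 245 and 413 against 53.8, 50.2 and 51.3 (2.69). Ndrg1 and P4ha1, hypoxia-induced genes of growth arrest and collagen hydroxylation, rose by 3.20 and 2.73. Pdk1 and Car9, further hypoxia targets, were not called, and Pdk1 stood at 54.7, 57.8 and 52.9 against 80.7, 80.6 and 82.4 FPKM. Against D5-LSKCD201+ 6 of 40 were higher and 4 lower, near the shares of all genes in that comparison (13.9% and 10.8%).

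Upstream sequence of 3 of these genes is shown because the hypoxia-inducible factors bind the core ACGTG and these genes rose. Each window shown holds the core, and for Ldha, which has 2 windows, a window with the core was taken. Capitals mark ACGTG read on either strand, in 250-base RefSeq windows of GRCm38.p6 that end before the start of the gene. They are Ldha (plus strand, chr7:46845554-46845803), Bnip3 (minus strand, chr7:138909507-138909756) and Slc16a3 (plus strand, chr11:120948817-120949066).

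Ldha: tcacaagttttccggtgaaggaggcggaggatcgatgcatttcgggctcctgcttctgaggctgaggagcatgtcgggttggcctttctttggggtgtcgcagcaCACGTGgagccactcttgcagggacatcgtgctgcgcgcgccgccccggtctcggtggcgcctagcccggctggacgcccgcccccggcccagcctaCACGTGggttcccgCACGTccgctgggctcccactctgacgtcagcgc

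Bnip3: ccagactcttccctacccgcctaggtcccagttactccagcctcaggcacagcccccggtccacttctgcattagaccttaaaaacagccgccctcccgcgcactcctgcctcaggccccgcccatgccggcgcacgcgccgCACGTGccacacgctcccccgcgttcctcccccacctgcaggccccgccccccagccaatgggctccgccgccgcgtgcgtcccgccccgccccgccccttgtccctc

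Slc16a3: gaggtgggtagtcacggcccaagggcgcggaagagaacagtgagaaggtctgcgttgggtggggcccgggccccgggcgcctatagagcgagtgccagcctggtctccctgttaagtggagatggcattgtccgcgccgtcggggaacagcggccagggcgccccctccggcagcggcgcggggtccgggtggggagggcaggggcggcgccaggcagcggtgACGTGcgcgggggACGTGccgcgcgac

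The core was found in 12 of the 21 windows (57.1%) of the glycolysis and hypoxia genes called higher, beside 21.5% of the 12654 windows of tested genes and 18.2% of windows of all genes called higher. Some genes have more than 1 window, and 17 of the 21 genes had any. CACGTG reads as ACGTG on both strands, so it counts as overlapping matches, of which the Ldha window holds 2 pairs. The list was made of known glycolysis and hypoxia response genes, and the share among its members not called was not counted. The share is therefore a description of letters that cannot be tied to the rise. A window without them says nothing about the factor.

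Of 33 imprinted genes 29 were tested, 13 were higher than in mESC and 2 lower (1 lower without replicate 2), with a median of 0.85. Igf2, the fetal growth factor, stood at 119, 93.0 and 128 FPKM against 2.58, 3.62 and 3.17 in mESC (4.79, SE 0.14) and 1699, 1654 and 1674 in D5-LSKCD201+. Asb4 and Peg3 rose by 5.09 and 2.93. H19, the noncoding neighbor of Igf2, was at 1.21, 0.620 and 0.987 against 0.430, 0.616 and 0.687 FPKM and was not called. Against D5-LSKCD201+, 18 of 29 were lower and 3 higher, beside 10.8% and 13.9% of all genes.

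In the Wnt list of 39 genes 35 were tested, 14 were higher and none lower (limma; 5 at an unadjusted p below 0.05), with a median of 0.61. Dkk1, a secreted Wnt inhibitor, stood at 26.1, 30.9 and 27.8 FPKM against at most 0.0686 (4.80, SE 0.10), and Wls, which carries Wnt proteins to the surface, rose by 3.68. Axin2, a feedback target of the pathway, was at 1.23, 0.536 and 1.19 against 0.631, 0.932 and 0.912 FPKM and was not called. In the TGF-beta and BMP list of 45, 38 were tested, 12 were higher and 5 lower. Id3, a BMP target, stood at 206, 236 and 226 FPKM against 19.3, 15.8 and 17.7 (3.59), and Fst, an activin trap, rose by 3.59, while Smad7, an inhibitory SMAD, fell by 1.82. In the Notch list of 34, 29 were tested and 4 were higher (13.8%), near the share of all genes, and 6 without replicate 2. FGF and ERK genes, listed after the values were seen, were split between 4 higher, among them Fgf5 and Fgf8, and 5 lower of 19 tested, among them the feedback genes Spry4 and Etv4. Without replicate 2 the lower genes were 3, and Etv4 went from -1.83 to -1.22. Spry4 stood at 6.74, 3.19 and 6.50 FPKM against 20.2, 20.4 and 22.0.

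Of 32 immediate early genes 28 were tested, 13 were higher and 3 lower, with a median of 0.72. Fos stood at 68.7, 66.7 and 68.6 FPKM against 3.00, 3.37 and 3.32 (4.03, SE 0.07), and Jun rose by 3.68. Jund stood at 25.9, 5.78 and 38.2 against 96.0, 97.0 and 82.1 and fell by 2.26 (-1.51 without replicate 2). Myc fell by 1.17, from a mean of 86.3 to 37.9 FPKM. In the list of interferon response and MHC class I, 28 of 33 were tested, 11 were higher and 1 lower (none without replicate 2), and B2m, the light chain of MHC class I, stood at 102, 132 and 112 against 23.6, 21.9 and 23.4 FPKM (2.27). In the lipid list of 27, 23 were tested and 12 were higher.

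Of 59 ribosomal protein genes none was called by limma, though 28 were higher and 3 lower at an unadjusted p below 0.05, with a median of 0.18 and no change beyond 0.50. Of 47 genes of oxidative phosphorylation none was called either, with 16 higher and 7 lower at an unadjusted p below 0.05. Of 56 cell cycle genes, 55 were tested, 2 were higher (3.64%, beside 10.9% of all genes) and 3 lower (5.45%, beside 3.48%). Without replicate 2 the lower genes were 2. At an unadjusted p below 0.05 by limma, 11 were higher and 21 lower. Ccne1, cyclin E1, stood at 92.5, 98.4 and 93.6 FPKM against 338, 324 and 340 and fell by 1.81, and Ccng2, an inhibitory cyclin, rose by 1.79. Mki67, the proliferation marker, was at 6.71, 4.96 and 6.51 against 5.61, 6.02 and 5.75 FPKM, and the groups overlapped. Of 36 genes of DNA methylation and polycomb, 34 were tested, 5 were lower (14.7%, beside 3.48% of all genes) and 3 higher (8.82%, beside 10.9%). Phc1 and Jarid2, polycomb genes of mESC, fell (-1.88 and -1.38). Of 16 housekeeping genes 4 were higher, among them Hprt, at 4.84, 7.41 and 6.32 against 1.84, 1.15 and 1.66 FPKM (1.49), while Gapdh and Actb were not called. Of 33 tested p53 target and apoptosis genes 3 were higher and 1 lower, near the shares of all genes, and under quantile normalization 1 was higher and 3 were lower. Without replicate 2 none was lower. Of 29 tested lysosome and iron genes 6 were higher and 2 lower. Of 6 sex-linked genes 4 were tested and 1, Eif2s3y, was lower (-1.01), which was not called without replicate 1 or without replicate 3 of D5-LSKCD201-.

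**Figure D5:**
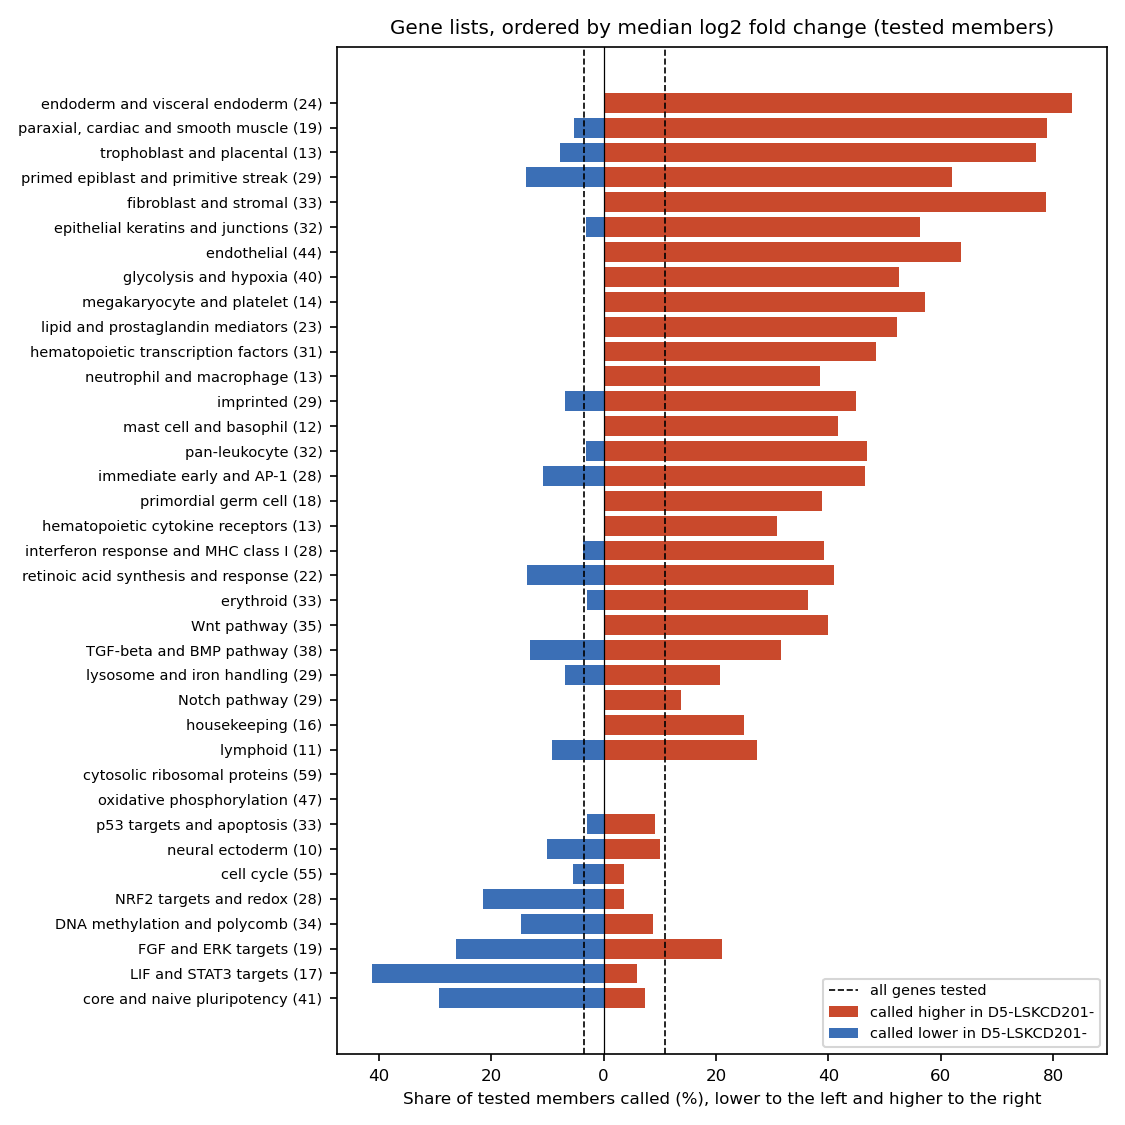
Bars give the share of tested members of each list called lower (left of 0) or higher (right of 0) in D5-LSKCD201- than in mESC, with the number tested in parentheses, and dashed lines give the shares of all genes tested, 3.48% and 10.9%. Lists with at least 10 tested members are shown in order of median log2 fold change, from core and naive pluripotency at -0.82 to endoderm and visceral endoderm at 2.58.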

How the data were processed

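RNA was sequenced from sorted populations on an Illumina HiSeq X instrument as 150-base paired reads. The authors aligned reads with HISAT2 2.0.5 and deposited FPKM per gene, made with StringTie 1.3.3 according to the methods. The processing notes name both GRCm38 and mm9, and positions here are from GENCODE M21 on GRCm38. The count of reads behind a value is not known, so limma 3.58.1 (R 4.3.3) was run with trend on log2(FPKM + 1), two-sided, on the 3 against 3 libraries, with no covariate. D5-LSKCD201- and D5-LSKCD201+ were compared the same way, and its alternatives were chosen after seeing the data. The fit was also run on simulated data with independent noise for each gene. In these, 200 genes were changed by known folds above the threshold, and all others had equal means. The fit recovered 89.5% of the 200, and 0.556% of its calls were false. The simulation held no shift like that of replicate 2 and no smaller changes. Its rates are therefore not error rates of the calls reported here.

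The members and lists were chosen with earlier results of these data known, and 5 lists were made after values were seen. Genes named were the 12 largest rises and 11 largest falls among called genes whose values did not overlap between the groups. Also named were up to 4 called, the defining and up to 2 uncalled members of each list, and the genes of the sort. Further list members were chosen after their values were seen. Alternatives were pseudocount, filter, normalization, prior, the replicate block, 1 fit over 5 groups, the threshold and leaving out each library. Some results are not reported here.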

Additional observations from a re-analysis of the deposited data

How the results depend on the processing

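The counts of 1476 higher and 473 lower genes stayed within 1.5 times under most alternatives. Lower genes were 790 with a pseudocount of 0.1 and 741 under quantile normalization, which left 1104 higher genes and moved the share of higher calls from 75.7% to 59.8%. It also left 2 higher cytokine receptor and 2 higher Notch genes, 1 higher polycomb gene and 5 lower cell cycle genes. Without the fold threshold there were 4374 higher and 3044 lower genes. Leaving out each library in turn gave 1420 to 1544 higher and 407 to 552 lower genes. Without replicate 2 of D5-LSKCD201-, 1387 of the 1476 and 384 of the 473 were still called. With the replicate block there were 1479 higher and 476 lower genes. The deviations of same-numbered D5-LSKCD201- and mESC libraries correlated at -0.05, -0.08 and -0.06 across genes, so the numbers did not pair these libraries. Such correlations were not taken between D5-LSKCD201- and D5-LSKCD201+, which came from the same coculture. In that comparison all 150 named genes kept their call with the replicate block. Among the genes named, against mESC, Etv4 and Jund lost their call without the filter and Ttr under quantile normalization. Gata2 and Klf1 were called higher with a pseudocount of 0.1. With values rescaled to equal sums Car2 lost its call and Pou5f1 was called lower. Against D5-LSKCD201+, Actn3, Gfi1b, Klf1 and Ttr lost their call under quantile normalization. Without replicate 2 of D5-LSKCD201-, Bcl3, Gfi1b, Junb, Rara and Socs3 lost theirs there, and Axin2, Etv4, Id2, Klf2, Nkx2-5, Pim1 and Zfp57 gained a call. Axin2 and Nkx2-5 also gained it with a pseudocount of 0.1. None reversed in either comparison. The causes were not tested. Depth is unknown, so what it limits at low FPKM could not be stated.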
